A study of Mus musculus with 13 samples.

Results

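The genes followed here in single mouse oocytes belong to the calcium response that starts at fertilization. They were the calmodulin genes Calm2 and Calm3, the IP3 receptor gene Itpr1, the calmodulin-dependent kinase gene Camk2g and the channel genes Trpm7 and Cacna1h. They were chosen by name, with earlier results of these libraries known, as 6 of the 18939 genes in the count tables, and all 6 were found. Because the choice drew on the measured levels in all 4 groups, the values of the 6 genes are given as a description with no test. Tests were kept for other calcium genes, listed by role. That list was also drawn up with earlier results of these libraries known, so its p-values are not free of that choice.

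The libraries came from 13 single oocytes, 1 oocyte each. At the germinal vesicle (GV) stage, when the oocyte is arrested with an intact nucleus, there were 3 NSN and 3 SN oocytes. In NSN (non-surrounded nucleolus) oocytes the chromatin does not ring the nucleolus and transcription is still active, and in SN (surrounded nucleolus) oocytes the chromatin rings it and transcription has ceased. At metaphase II (MII), the stage at which the egg awaits sperm, there were 3 oocytes that had been NSN (NSN-MII) and 4 that had been SN (SN-MII). All 4 groups came from C57BL/6 females 3 to 4 weeks old, 48 h after PMSG, and shared the same handling: injection of FBL-GFP mRNA together with H2B-mCherry mRNA, a block in 10 µM Cilostamide for 6 h, and sorting by the nucleolar FBL-GFP pattern, after which the MII oocytes were released from the block and matured in vitro. The types are therefore defined on injected, drug-arrested oocytes, with no untouched group, and a type at MII is the type read at the GV stage. Nothing in the sources used here ties the oocytes to separate animals or collection days, so the spread between libraries may hold only part of the variation between animals.

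Sperm bring a phospholipase C that makes IP3, which opens the IP3 receptor on the endoplasmic reticulum (ER) and releases calcium in repeated waves. Calcium-loaded calmodulin activates the kinase CaMKIIγ, the product of Camk2g, which marks the meiotic inhibitor EMI2 for destruction so that the egg leaves MII. The waves last only as long as calcium enters from outside to refill the store, and TRPM7 and the T-type channel CaV3.2, the product of Cacna1h, are known routes of that entry in mouse eggs. The oocyte builds this machinery before ovulation.

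Several unlinked genes encode calmodulin in mammals. On the mm10 (GRCm38) build with the GENCODE annotation, Calm2 lies at chr17:87433412-87446935 and Calm3 at chr7:16915379-16924114, both on the minus strand. Their annotated coding sequences are each 450 bases long and translate to 1 identical product of 149 residues. They differ at 78 coding bases (82.7% identity), 74 of them at the third codon position, and no codon difference changed an amino acid. Coding bases 256 to 345, counted from the start codon, are printed because they let a reader see how a read tells the genes apart. Capitals mark the 17 of these 90 positions at which they differ.
Calm2: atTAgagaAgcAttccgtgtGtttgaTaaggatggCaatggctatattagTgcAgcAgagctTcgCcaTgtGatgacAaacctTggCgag
Calm3: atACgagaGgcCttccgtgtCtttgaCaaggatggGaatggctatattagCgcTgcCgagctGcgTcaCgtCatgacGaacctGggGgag
The longest run of identical bases in the aligned coding sequences was 17, and no run of 50 bases was shared between the annotated transcripts of Calm2 and Calm3. Calm2 shared runs of 50 bases with the processed pseudogenes Gm7308, Gm15720 and Gm14480, and Calm3 with Gm5881, and all 4 pseudogenes are listed at 0 in every library.

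Each library held 7140416 to 8846287 counts, and 11579 to 13333 genes had a count. Levels are given as CPM (counts scaled by library size), the gene's count relative to the library total after TMM scaling, and where genes are compared with each other as FPKM, which also divides by gene length. A level is therefore a share of the polyadenylated RNA captured from 1 oocyte, and a change in a gene's own messages cannot be told from a change in the total. Nor can it be told from a change in how well those messages were captured by priming on poly(A). All 10 oocyte markers were found, with a summed level of 21458 to 28992 CPM at GV, 17982 to 19019 CPM in NSN-MII and 21235 to 24652 CPM in SN-MII. Of 15 cumulus and granulosa markers, 7 never exceeded 3 counts and 3 of these (Foxl2, Ptx3 and Lhcgr) were at 0 in every library. The 15 markers summed to 72.6 to 99.3 CPM at GV, 110 to 195 CPM in NSN-MII and 115 to 136 CPM in SN-MII. Cyp19a1 was the highest of them, at 37.8 to 158 CPM. The cumulus sum was thus higher in every MII library than in every GV library, and the oocyte sum lower in every NSN-MII library than in every SN-MII library, and their part in the differences below was not tested.

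Calm2 was the member that differed most between the groups, and the only one whose libraries separated the 2 types of MII oocyte in CPM. Its level was 243, 422 and 335 CPM in the NSN GV oocytes and 411, 398 and 360 CPM in the SN GV oocytes. It was 11.4, 16.6 and 11.1 CPM in the NSN-MII oocytes and 41.2, 47.7, 50.8 and 65.2 CPM in the SN-MII oocytes. Every MII library lay below every GV library, every NSN-MII library lay below every SN-MII library, and the types overlapped at GV. The group means in order were 390 ± 26.3 CPM in SN GV (SD, n = 3), 333 ± 89.8 in NSN GV (n = 3), 51.3 ± 10.1 in SN-MII (n = 4) and 13.04 ± 3.06 in NSN-MII (n = 3), and only the first pair of neighbours overlapped.

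The mean CPM of Calm2 at GV was 25.6 times that at MII among NSN oocytes and 7.61 times among SN oocytes. As log2 differences fitted by edgeR, MII was lower than GV by −4.67 (SE 0.28) for NSN and by −2.93 (SE 0.23) for SN. Between types the log2 difference, NSN minus SN, was −0.22 (SE 0.19) at GV and −1.97 (SE 0.27) at MII, and the type difference at MII minus that at GV was −1.74 (SE 0.34). The counts behind the lowest group were 96, 134 and 66 reads. The lowest number of genes with a count, 11579, was in NSN-MII 3, and without that library the log2 difference of Calm2 between the MII types was −1.86.

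**Figure D1:**
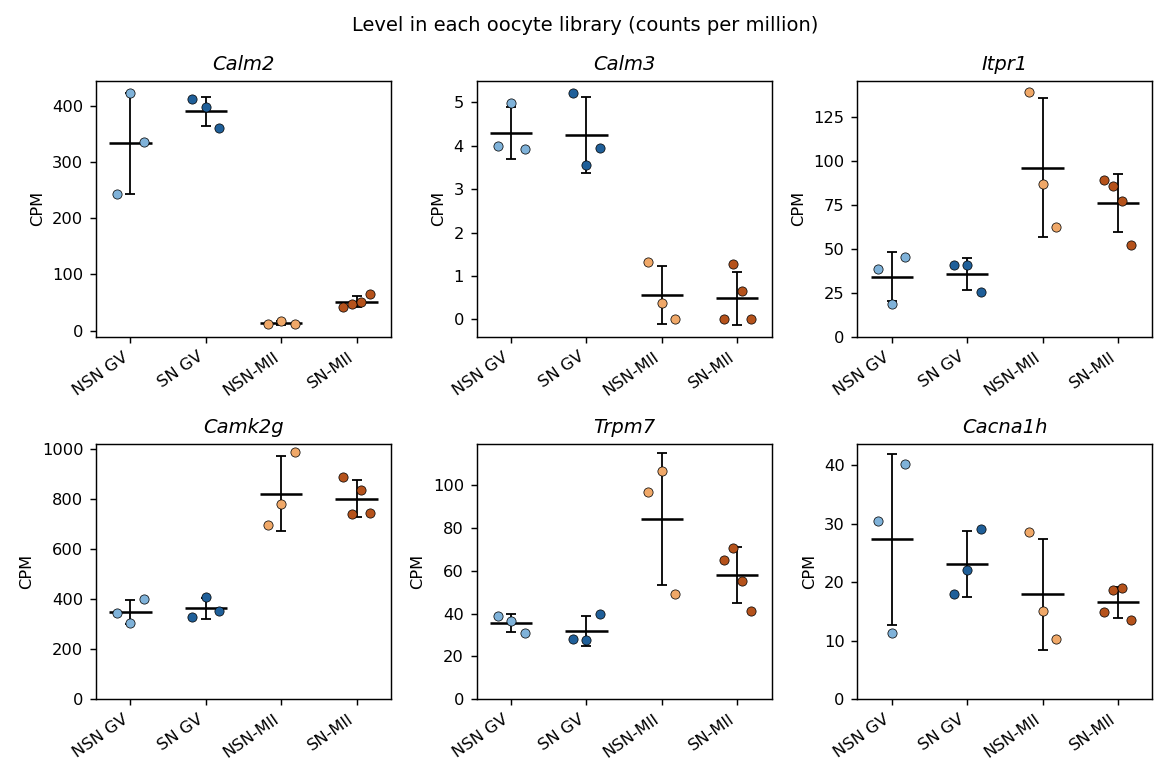
CPM (y axis, linear, one scale per gene) of the 6 members in each of the 13 oocyte libraries, by group (x axis). Points are libraries, the long line is the group mean and the bars are 1 SD. The NSN-MII points of Calm2 lie between 11.1 and 16.6 CPM, below the SN-MII points at 41.2 to 65.2 CPM, while for Itpr1, Camk2g, Trpm7 and Cacna1h the 2 MII groups overlap.

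Calm3 was near the limit of detection. Its level was 3.99, 4.99 and 3.92 CPM in NSN GV and 5.22, 3.55 and 3.95 CPM in SN GV. It was 1.31, 0.37 and 0 CPM in NSN-MII and 0, 1.28, 0.66 and 0 CPM in SN-MII. The GV libraries held 30 to 41 reads of Calm3 and the MII libraries 0 to 11, and no MII library reached the lowest GV library. The log2 difference of MII from GV was −2.96 (SE 0.75). The MII types overlapped, with means of 0.56 ± 0.67 CPM (SD, n = 3) and 0.49 ± 0.62 CPM (n = 4), and the gene did not pass the filter on low counts there, so a difference between types at MII was not detectable at this depth.

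Itpr1 (chr6:108213096-108551109, plus strand) encodes the IP3 receptor type that carries calcium release in mouse eggs. It was at 38.3, 18.5 and 45.2 CPM in NSN GV and at 40.6, 40.9 and 25.2 CPM in SN GV. It was at 139, 86.8 and 62.1 CPM in NSN-MII and at 88.7, 85.4, 77.0 and 52.3 CPM in SN-MII. All MII libraries were above all GV libraries, and the types overlapped at both stages. The log2 difference of MII from GV was 1.29 (SE 0.25), and NSN-MII differed from SN-MII by 0.34 (SE 0.28). In FPKM the GV libraries reached 8.32 and the MII libraries began at 5.62, so the stages overlapped on that scale.

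Camk2g (chr14:20734875-20794088, minus strand) was the most abundant of the 6 at MII in FPKM. It was at 343, 303 and 399 CPM in NSN GV and at 328, 410 and 350.3 CPM in SN GV. It was at 695, 781 and 986 CPM in NSN-MII and at 888, 741, 834 and 742 CPM in SN-MII. The lowest MII library, at 695 CPM, was above the highest GV library, at 410 CPM, and the types overlapped at both stages. The log2 difference of MII from GV was 1.19 (SE 0.13), or 0.89 with library totals in place of TMM scaling, which also moved the median log2 difference of all genes by −0.29. The types differed by −0.04 (SE 0.17) at GV and 0.03 (SE 0.15) at MII. In the same libraries Calm2, whose product activates this kinase, averaged 11.3 FPKM in NSN-MII and Camk2g 521 FPKM.

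Trpm7 (chr2:126791565-126876230, minus strand) encodes a channel fused to a kinase domain that carries calcium and magnesium. It was at 39.0, 36.7 and 31.1 CPM in NSN GV and at 28.03, 27.8 and 39.7 CPM in SN GV. It was at 96.9, 106 and 49.1 CPM in NSN-MII and at 64.8, 70.8, 55.4 and 41.0 CPM in SN-MII. The MII libraries were all above the GV libraries, the nearest being 41.0 CPM in SN-MII against 39.7 CPM in SN GV, and the log2 difference was 1.05 (SE 0.21). The MII types overlapped in CPM, with a log2 difference of 0.54 (SE 0.28).

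The order of the Trpm7 groups depended on the scale. In FPKM the NSN-MII libraries were at 27.6, 26.7 and 20.9 and the SN-MII libraries at 17.8, 17.8, 17.1 and 9.34, so that the MII types no longer overlapped. The stages did overlap in FPKM, since NSN GV 2 was at 20.02 and SN-MII 4, at 9.34, was within the 5.39 to 10.3 of the other GV libraries. The ratio of CPM to FPKM, computed from the library totals, ran from 1.87 to 6.09 among the libraries for Trpm7. It ran from 0.63 to 2.02 for Calm3, 5.29 to 11.8 for Itpr1 and 5.06 to 9.54 for Cacna1h. The range was 1.31 to 2.20 for Camk2g and 0.98 to 1.26 for Calm2. The FPKM divide by a length that the quantification estimates in each library, and why it varied for Trpm7 was not tested.

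**Figure D2:**
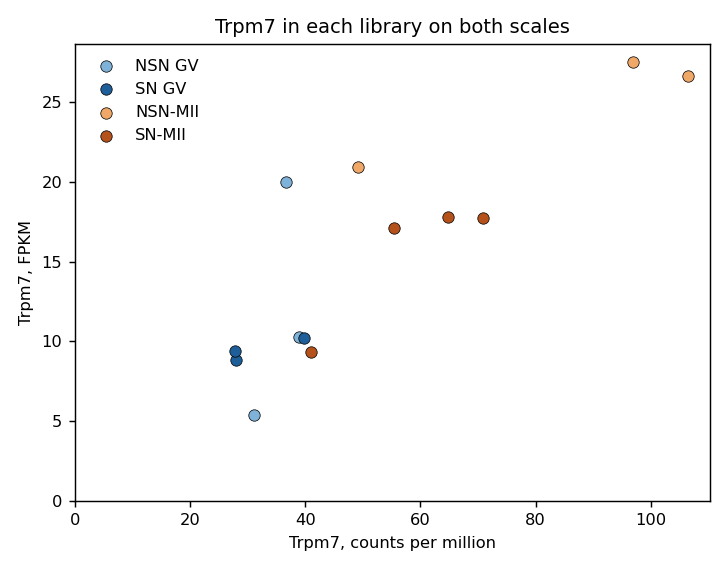
Trpm7 in each of the 13 libraries in CPM (x axis) and FPKM (y axis), coloured by group. The NSN-MII points lie above the SN-MII points on the y axis (20.9 to 27.6 against 9.34 to 17.8 FPKM) and overlap them on the x axis, and 1 NSN GV point at 20.02 FPKM stands above the other GV points.

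Cacna1h (chr17:25374285-25433783, minus strand) encodes the pore of the T-type calcium channel CaV3.2. It was at 30.6, 11.4 and 40.2 CPM in NSN GV and at 17.97, 22.1 and 29.2 CPM in SN GV. It was at 28.5, 15.1 and 10.3 CPM in NSN-MII and at 15.0, 18.6, 19.0 and 13.6 CPM in SN-MII. All neighbouring groups overlapped, in CPM and in FPKM, and the log2 difference of MII from GV was −0.54 (SE 0.29). The difference between the MII types was 0.13 (SE 0.35), or −0.39 without NSN-MII 1.

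**Figure D3:**
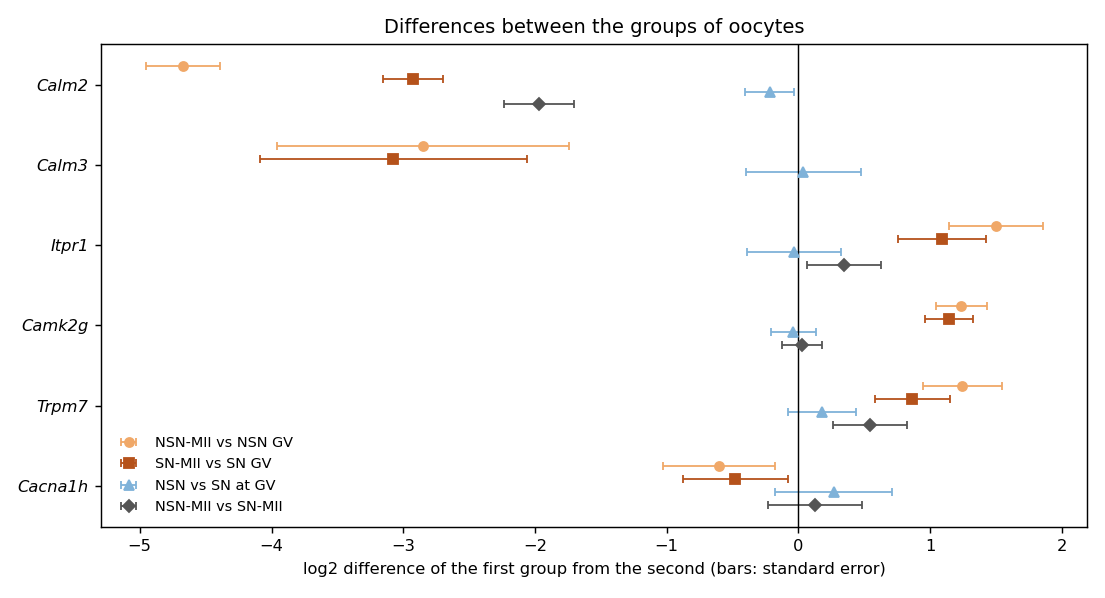
Log2 difference (x axis) of the first group from the second for each member (y axis), for MII against GV within each type and for NSN against SN within each stage. Symbols are the edgeR estimates and bars their standard errors. Calm2 lies at −4.67, −2.93 and −1.97 in 3 of the comparisons, the MII types of the other genes lie between 0.03 and 0.54, and Calm3 has no estimate between the MII types because it did not pass the filter.

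Across stages, the libraries of 5 of the 6 members did not overlap in CPM, 3 higher at MII (Itpr1, Camk2g and Trpm7) and 2 lower (Calm2 and Calm3). This was the case for 47.4% of the 11375 genes tested, 20.9% higher and 26.5% lower. Within each type the same 5 genes were apart in the same directions, against 60.9% of genes for NSN (27.8% higher and 33.2% lower) and 63.4% for SN (28.9% higher and 34.5% lower). Between types at GV none of the 6 was apart, against 6.04% of 10839 genes (3.11% higher and 2.93% lower in NSN). Between types at MII 1 of the 5 members that passed the filter was apart, Calm2, against 10.2% of 10028 genes of which 5.56% were lower and 4.61% higher in NSN-MII. These counts rest on the values that chose the members and are given as a description.

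The genes most like each member over the 13 libraries, by Pearson correlation of log2(CPM + 1) among 11375 genes, are listed as a description, since the stages did not overlap for 47.4% of these genes. For Calm2 they were Kpna2 (r = 0.991), Lsm3 and H2afy2. Kpna2, an importin α, averaged 1635 and 1866 CPM in NSN GV and SN GV, 78.8 CPM in NSN-MII and 219 CPM in SN-MII. For Camk2g they were Hipk2 (r = 0.991), Pacsin2 and Bptf, and for Calm3 Tbc1d7 (r = 0.987), Gins1 and Naxe. For Itpr1 they were Ipcef1 (r = 0.969), Lama2 and Rapgef6, for Trpm7 Rprd1a (r = 0.929), Pikfyve and Add2, and for Cacna1h Arhgef7 (r = 0.899), Mau2 and Sdccag8.

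With each value taken relative to the mean of its stage, the genes most like Calm2 were Ube2t (r = 0.980), H3f3a (0.974), Snu13 (0.968), Gna14 (0.967) and Aurkb (0.963). H3f3a, which encodes the histone variant H3.3, averaged 129 ± 42.0 CPM in NSN-MII (SD, n = 3) and 509 ± 71.1 CPM in SN-MII (n = 4), and at GV 473 and 573 CPM. Aurkb, a kinase of chromosome segregation, averaged 5.07 ± 0.97 and 26.1 ± 10.1 CPM in the same MII groups. Unlike Calm2, H3f3a and Aurkb in SN-MII were within the range of their GV means, at 509 and 26.1 CPM against 473 to 573 and 25.4 to 29.4 CPM. The SN-MII means of Ube2t, Snu13 and Gna14 were below their GV means, at 498 CPM against 602 to 703, 183 against 195 to 209 and 65.7 against 98.0 to 100.1. Their SN-MII libraries overlapped the GV libraries, so this contrast rests on means. They ran from 317 to 981 CPM for Ube2t (GV 460 to 751). For Snu13 they ran from 161 to 226 (GV 152 to 245) and for Gna14 from 50.5 to 92.9 (GV 80.4 to 122). The points share their libraries, so no p is given.

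The wider calcium machinery was examined in 89 other genes grouped by role, of which 88 were in the count tables. Of the list, 3 genes were at 0 in every library, which does not exclude a low level that this depth missed. One of those at 0 was Plcz1, the sperm phospholipase C. Between MII and GV, 55 of the 88 passed the filter, 21 rose, 15 fell and 19 did not pass the test (edgeR adjusted p under 0.05). Of the 36 calls, 25 held under every alternative. The share called was 65.5%, against 68.6% of all 11375 genes tested (31.7% higher and 36.9% lower). The median log2 fold change of the list was 0.20, against −0.10 for all genes. Where fewer than 6 genes of a role passed the test, some of those outside the naming rule are named as well, chosen after their values were seen.

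**Figure D4:**
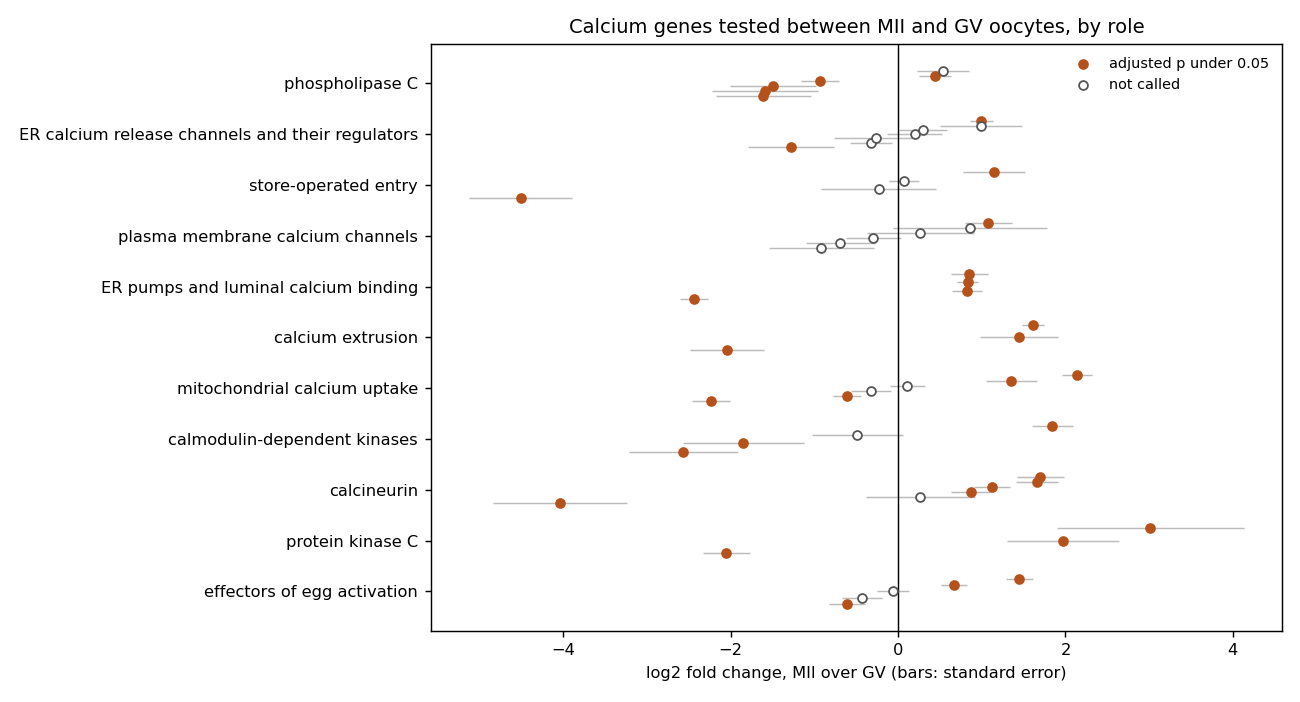
Log2 fold change of MII over GV (x axis) for tested calcium genes, by role (y axis). Filled points passed the test at an adjusted p under 0.05, open points did not, and bars are standard errors; both directions occur among the called genes of most roles.

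Among the genes of calcium release and store filling, Itpr2, a second IP3 receptor, rose by a log2 fold change of 0.995 (SE 0.14, edgeR adjusted p = 7.17e-06), from 169 ± 25.02 CPM at GV (SD, n = 6) to 336 ± 36.7 at MII (n = 7). Of 7 tested genes for release channels and their regulators, Itpr2 was the only one called higher. Ahcyl2 was called lower, a call lost in 7 alternatives, 6 of them leaving out 1 library. Calr, the calcium-binding chaperone calreticulin of the ER lumen, fell from 439 ± 61.7 to 79.9 ± 18.9 CPM (log2 −2.44, SE 0.17, edgeR adjusted p = 1.98e-09). The other 3 tested genes for ER pumps and luminal binding, Atp2a2, Canx and Casq2, rose. The call of Casq2 was lost with library totals in place of TMM scaling, at a log2 fold change of 0.555. Orai1, the pore of store-operated entry, fell from 11.2 ± 3.29 to 0.46 ± 0.51 CPM (log2 −4.51, SE 0.61, edgeR adjusted p = 5.92e-06), on at most 11 reads in an MII library, whereas Orai3 rose.

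Among the plasma membrane channels, the group of Trpm7 and Cacna1h, 1 of 6 tested genes passed the test, Cacna1d, which was higher at MII. Of 3 genes for calcium extrusion, Atp2b1, a plasma membrane calcium pump, rose from 88.3 ± 11.7 CPM at GV (SD, n = 6) to 270 ± 13.3 at MII (n = 7; log2 1.62, SE 0.13, edgeR adjusted p = 1.79e-08). Its paralogue Atp2b3 fell by 2.04 on the log2 scale and Atp2b4 rose by 1.44, a call lost with library totals (1.13) and with limma on log2(FPKM + 1) without the FPKM filter (0.23, adjusted p = 0.448). The mitochondrial uniporter genes went both ways. The pore gene Mcu rose from 125 ± 31.4 to 547 ± 101 CPM (log2 2.14, SE 0.18, edgeR adjusted p = 2.25e-08) and Micu3 rose. Smdt1, which encodes the uniporter subunit EMRE, fell from 31.9 ± 7.96 to 6.73 ± 1.13 CPM (log2 −2.24, SE 0.22, edgeR adjusted p = 2.03e-07).

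Among the effectors downstream of calcium, Camk1d was the only calmodulin-dependent kinase gene of 4 tested that rose (log2 1.84, SE 0.24, edgeR adjusted p = 4.23e-06), and Camk4 and Camkk2 fell at low levels, the call of Camkk2 being lost in 6 of the fits that left out 1 library. Of 6 calcineurin genes, Ppp3ca, Ppp3r1 and the regulators Rcan1 and Rcan3 rose and the catalytic subunit gene Ppp3cc fell, the call of Ppp3r1 being lost with library totals. Rcan3 went from 69.0 ± 24.8 CPM at GV (SD, n = 6) to 218 ± 32.9 at MII (n = 7), and Ppp3cc from 2.69 ± 1.86 to 0.16 ± 0.22 CPM on at most 5 reads in an MII library. Of 5 tested effectors of egg activation, 2 were called higher and 1 lower. Fbxo43, which encodes the CaMKIIγ target EMI2, rose from 205 ± 39.5 to 558 ± 93.4 CPM (log2 1.45, SE 0.16, edgeR adjusted p = 6.89e-07). Wee2, a kinase needed to leave MII, rose by 0.67 on the log2 scale. Of the protein kinase C genes tested, Prkcd fell by 2.05 on the log2 scale and Prkcb was called higher, as was Marcks, which encodes a substrate of these kinases. The calls of Prkcb and Marcks were lost in 10 and 2 alternatives. Of 6 phospholipase C genes, 4 fell, Plcg2 among them by 0.94 on the log2 scale. Of the other 3 the call of Plcd4 was lost in 9 alternatives, 7 of them leaving out 1 library, and that of Plcg1 in 1. Plcb1 was called higher (log2 0.44, edgeR adjusted p = 0.0469), but the call was lost in 17 alternatives and the value was −0.45 in FPKM.

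Between types, no gene of the calcium list passed the test. At GV 0 of 52 tested genes were called by edgeR and 0 by DESeq2, 3 had an unadjusted p under 0.05, and 0.0% of all 10839 genes were called. At MII 0 of 48 were called by edgeR and 6 had an unadjusted p under 0.05, against 26 of 10028 genes, or 0.259%, called in all (0.249% lower and 0.00997% higher in NSN-MII). DESeq2 called 3 of the 48, Erp44, Ppp3r1 and Astl, which are named here after their values were seen. The share of all genes called by DESeq2 is not given here, so these calls cannot be set against the 0.259%, which is from edgeR. The share of all genes with an unadjusted p under 0.05 is not given either, so those counts cannot be read as an excess. For the change of the type difference between stages, 0 of 55 were called by either tool, 4 had an unadjusted p under 0.05, and 0.0176% of all genes were called by edgeR.

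Erp44 encodes an ER protein known to bind the IP3 receptor. It was at 80.7, 75.4 and 62.9 CPM in NSN-MII and at 62.7, 257, 276 and 218 CPM in SN-MII, so SN-MII 1 lay with the NSN-MII libraries. Its log2 difference was −1.48 (edgeR adjusted p = 0.180, DESeq2 adjusted p = 0.00636). Without SN-MII 1 it was −1.78 (edgeR adjusted p = 0.00595). Leaving out the library that lay apart from its group was bound to widen the difference, so this p adds no support. Ppp3r1, the regulatory subunit gene of calcineurin, was at 125, 177 and 149 CPM in NSN-MII and at 234, 260, 241 and 358 CPM in SN-MII, with no overlap (log2 −0.86, edgeR adjusted p = 0.116, DESeq2 adjusted p = 0.00904). Astl, which encodes the cortical granule protease ovastacin, overlapped between the MII types, at 355 to 546 CPM and 520 to 1155 CPM.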

How the data were processed

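Single oocytes were profiled by SMART-seq2, which primes on poly(A), with Tn5 fragmentation, on the HiSeq X-10. The authors trimmed reads with Trim Galore 0.4.4, aligned them with Bowtie2 2.3.5 to mm10 and quantified genes with RSEM 1.2.28. The deposited expected counts, 1 table per stage, were not normalized, and up to 16.6% of a library's values were not whole. The deposited FPKM table was computed by the authors from the same libraries.

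Here the count tables were joined by gene symbol, and counts were rounded and tested with edgeR 4.0.16 in R 4.3.3: filterByExpr, TMM scaling, quasi-likelihood test, Benjamini-Hochberg adjustment over all genes tested, called at an adjusted p under 0.05. MII against GV and the change of the type difference between stages used 1 fit of 13 libraries. NSN against SN used the 6 GV or the 7 MII libraries. The steps were tested on simulated counts. Alternatives were DESeq2 1.42.0, its size factors, no filter, limma 3.58.1 on log2(FPKM + 1) or log2(FPKM + 0.1), a replicate block, library totals and leaving out each library. The members and the calcium list were chosen with earlier results of these data known. Named list genes were, per comparison, the 8 called with the largest log2 fold change in each direction whose libraries did not overlap in CPM, and other list genes were named after their values were seen. P-values measure the spread between these libraries.

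Coding sequences and gene positions came from GENCODE transcripts of GRCm38. Codons were read with Biopython. Protein sequences were not used here. Some genes of the calcium list and sites are not reported here.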

Additional observations from a re-analysis of the deposited data

Results flagged for a closer look

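In 3 genes, 1 of the 4 SN-MII libraries stood far from the other libraries of its group, by Dixon's criterion for 4 values. For Fbxo43 it was SN-MII 4 at 639 CPM. For Itpr2 it was SN-MII 2 at 303 CPM. For Ppp3cc it was SN-MII 1 at 0.265 CPM, on 2 reads, with the other SN-MII libraries at 0. Against values all at 0 any read is flagged, so the rate given next does not apply to Ppp3cc. None of the 6 members was among the 3, of 23 genes examined, and chance gives such a gap in about 1 group of 20.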

How the results depend on the processing

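Calm2 kept its direction under all alternatives, from −4.09 to −3.70 for MII against GV, from −2.20 to −1.79 between the MII types and from −1.96 to −1.54 for the change between stages. Values of low genes moved most. Calm3 at MII against GV was −1.94 with limma on log2(FPKM + 1), with or without the filter on FPKM, −3.73 on log2(FPKM + 0.1) and −3.70 to −2.72 over the libraries left out. Between types at GV it was 0.26 and 0.32 with those 2 pseudocounts. Its change between stages was −0.28 with a replicate block and −1.26 to 1.32 over the libraries left out, against 0.23. The Cacna1h difference between MII types was −0.39 to 0.41 over the libraries left out. Camk2g at MII against GV was 0.89 with library totals, a setting chosen after the data were seen. That setting shifted the median of all genes by −0.29. DESeq2 shifted the median by −0.19, but it was run without the filter on low counts. Its size factors in edgeR shifted the median by −0.04, and edgeR without the filter by −0.16. Between the MII types the calcium list had 3 calls with DESeq2, 2 without the filter and 0 to 1 over the libraries left out, against 0. Of the 36 calcium genes called between MII and GV, 25, the 16 named by the rule among them, kept their call under every alternative that gave an adjusted p, and 11 lost it in at least 1. Plcb1 turned direction in FPKM (−0.446 on log2(FPKM + 1), with or without the filter, and −0.462 on log2(FPKM + 0.1)). The causes were not tested.

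Whether replicate numbers pair the libraries cannot be told, because libraries with different numbers were not compared. Deviations of same-numbered libraries correlated at −0.458 to −0.206 at GV and −0.119 to 0.097 at MII. Between stages they ran from −0.212 (SN GV 3 with NSN-MII 3) to 0.202 (NSN GV 3 with NSN-MII 3). With the replicate block, 33 calcium genes were called between MII and GV, against 36, and 0 in each comparison of types.

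Depth limits Calm3, Orai1 and Ppp3cc at MII.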
